A study of Mus musculus with 12 samples.

Results

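The response to lipopolysaccharide (LPS) was measured in microglia of mice whose heads had been shielded during irradiation, using 6 of the 12 RNA-seq libraries of the series. The libraries were chosen by their titles: 3 came from shielded mice given LPS and 3 from shielded mice not given LPS, and every gene of the table was considered. All mice were wild-type C57BL/6J males aged 6 months. They received a bone marrow transplant (BMT), then PLX5622 in food for 2 weeks, standard chow for 6 weeks, and an intraperitoneal injection of 50 µg LPS or of saline. Microglia were enriched from brain 6 hours later by magnetic sorting with CD11b beads. PLX5622 inhibits the CSF1 receptor and removes most microglia, so the cells studied had returned after its withdrawal, in both groups. In shielded mice the head, and with it the brain, was kept out of the radiation field. The unshielded mice, 3 with and 3 without LPS, had the same course without a shield and entered the fit only for the shared estimate of the spread and for the comparison at the end.

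LPS is a cell wall component of Gram-negative bacteria. It is bound by CD14 and by the complex of MD-2 with Toll-like receptor 4, which signals through a pair of adaptor routes. The MyD88 route activates NF-kB and MAP kinases and switches on cytokine genes within the first hours, and the TRIF route leads to interferon beta, which acts back on the cells through JAK-STAT signalling and induces antiviral genes. Macrophages answering LPS also take up more glucose and amino acids, redirect iron, and make large amounts of secreted protein.

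For shielded no-LPS libraries 2 and 3, called the conflicting pair here, the treatment field names LPS, against the title. Titles were followed. Saa3, an acute-phase gene induced by LPS, was at 889, 662 and 831 CPM (CPM, counts per 1000000 counts of the TMM-scaled library) with LPS and 1.38, 0.388 and 0.412 CPM in libraries 1, 2 and 3 without, so the pair lay beside the library whose labels agree. Leaving the pair out leaves 1 library without LPS, so that its spread is taken from the other groups. Shielded LPS libraries held 29794946 to 40730784 counts and those without LPS 28770354 to 42931839. Genes with at least 10 counts numbered 15166 to 16569 with LPS and 16985 to 18977 without. Whether libraries of 1 group came from separate animals is not stated in the labels, and every p-value here rests on the spread between libraries, which may be technical. The microglia label held against its markers: without LPS, P2ry12 stood at 2009 to 2718 CPM, Tmem119 at 1855 to 2104 CPM and Csf1r at 7367 to 8916 CPM. Neuron markers (9 genes) summed to 36.5, 68.2 and 181 CPM in LPS libraries 1, 2 and 3 and to 312, 203 and 376 CPM without LPS. Oligodendrocyte markers (8 genes) summed to 436, 947 and 1358 CPM with LPS and 1827, 1975 and 2899 CPM without. Both sums were lower with LPS, and a fit with the mean level of these markers as a covariate, called the marker covariate here, was run for every gene. Neither sum overlapped between the shielded groups, so the covariate largely follows the treatment. Where a call is lost with it, LPS and other-cell RNA cannot be told apart. Monocyte markers (6 genes, 3 called higher and 1 lower, median 1.65) summed to 162, 148 and 268 CPM with LPS and 131, 141 and 114 CPM without. Neutrophil markers (7 genes, 1 higher and 1 lower, median -0.08) summed to 236, 199 and 368 CPM and 209, 114 and 95.8 CPM. CD11b beads also bind monocytes and neutrophils. Border macrophage markers (5 genes, 0 higher and 2 lower, median -0.37) summed to 227.1, 263.3 and 380.5 CPM with LPS and 373.4, 373.3 and 308.9 CPM without. Only 2 of 5 B cell markers and 2 of 7 T and NK cell markers passed the filter on low counts. The B cell markers kept summed to 0.512, 1.27 and 0.961 CPM with LPS and 1.57, 2.81 and 1.78 CPM without. Those kept for T and NK cells summed to at most 0.845 CPM in any shielded library.

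Of 18875 genes kept by the filter on low counts, 12738 (67.5%) passed the threshold of an adjusted p of 0.05 (edgeR quasi-likelihood test, Benjamini-Hochberg adjustment, used for all adjusted p-values below). Of these, 6119 (32.4%) were higher and 6619 (35.1%) lower after LPS, and without the conflicting pair 4524 (22.4%) and 3845 (19.0%) of 20198. The marker covariate left 3902 higher and 2833 lower of 18875. A list in which about as large a share was called does not stand apart from all genes. Grouping the pair by the treatment field instead left 0 of 20527 genes called with edgeR, and 284 (1.38%) at an unadjusted p under 0.05; no other tool was run under that grouping. The changes at the top of the scale were steeper upward: 72 genes rose at least 16-fold and 57 fell as far. At the milder end 2325 genes rose at least 2-fold (12.3%) and 4670 fell at least 2-fold (24.7%). The genes that rose at least 2-fold took 26.8 to 29.6% of all counts in LPS libraries against 11.4 to 11.8% without LPS. The median log2 change over all genes was -0.14 with TMM scaling. Scaling by library totals instead moved that median by -0.35 to -0.49 and turned the calls to 4042 higher and 9131 lower, so changes below are relative to the TMM scale. In bulk samples, fewer cells of a type and less RNA per cell cannot be told apart.

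**Figure D1:**
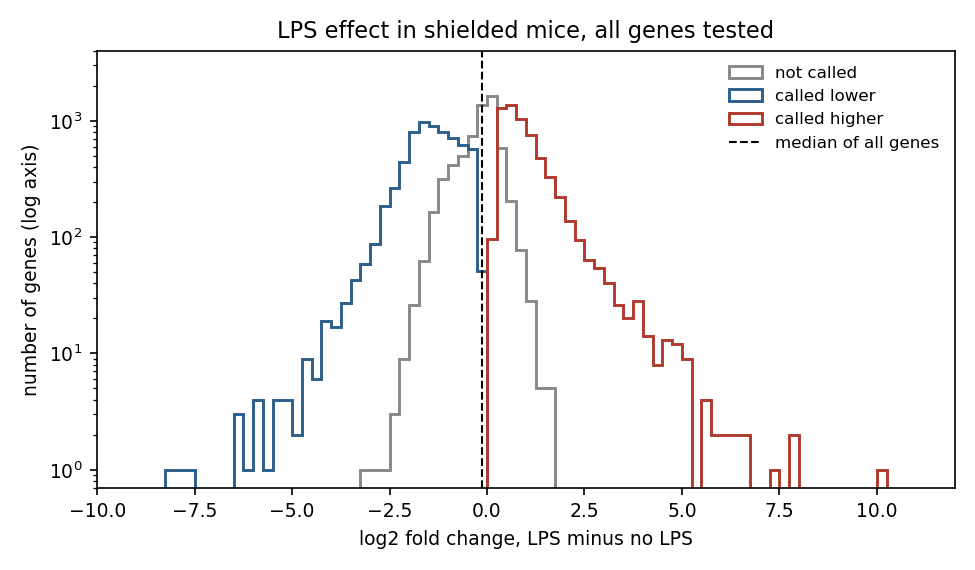
Histogram of the log2 fold change (LPS minus no LPS) of all 18875 genes tested in shielded mice, drawn as outlines on a log axis for genes called higher, called lower and not called, with the median of -0.14 as a dashed line. The called genes extend further to the right than to the left, where more genes lie between 2-fold and 8-fold.

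The machinery that makes proteins rose as a block. All 40 genes of ribosome biogenesis, the assembly of ribosomes in the nucleolus, were called higher, with a median log2 change of 1.97, and the same count of 40 was called without the conflicting pair. Ddx21, which encodes a nucleolar RNA helicase, was at 654, 598 and 494 CPM in LPS libraries 1, 2 and 3 and 102, 108 and 91.7 CPM without LPS (log2 change 2.53 ± 0.12 SE, adjusted p = 1.9e-08). Nop58, a core protein of the particles that methylate ribosomal RNA, stood at 178, 160 and 129 CPM with LPS and 28.7, 28.9 and 26.2 CPM without (2.47 ± 0.11 SE, adjusted p = 1.7e-08). For both genes the lowest LPS library lay more than 4-fold above the highest library without LPS. Nhp2 (2.23), part of the pseudouridylation particles, and Wdr12 (2.19), needed for the large subunit, rose alongside. The ribosomal proteins themselves moved far less: 60 of 82 were called higher, with a median of 0.38. Rps9 (0.16, adjusted p = 0.231) and Rpl13a (0.19, adjusted p = 0.133) missed the threshold. This smaller shift depended on processing: 17 of the 82 were called higher without the conflicting pair, 18 with the marker covariate, and scaling by library totals gave 20 higher and 7 lower.

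The enzymes that charge transfer RNAs followed ribosome biogenesis. All 20 cytosolic aminoacyl-tRNA synthetase genes tested rose, with a median of 1.46, and 19 did so without the conflicting pair. Eprs, which charges glutamate and proline, was at 528, 509 and 434 CPM with LPS and 131, 130 and 121 CPM without (1.94 ± 0.11 SE, adjusted p = 3.8e-08). Tars, which charges threonine, was at 224, 204 and 160 CPM and 51.0, 52.9 and 49.6 CPM (1.94 ± 0.11 SE, adjusted p = 4.1e-08). In both cases the 3 LPS libraries sat far above the others. Of 44 translation factors, 37 rose (33 without the conflicting pair), with a median of 1.18. Among them were Eif2s1 (1.99 ± 0.10 SE, adjusted p = 2.2e-08), the subunit of eIF2 whose phosphorylation restrains translation, and Eef1e1 (2.72), a scaffold of the synthetase complex. The 1 translation gene that fell was Eef2k, the kinase that inhibits elongation, from 164 to 199 CPM to 42.3 to 57.2 CPM (-1.90 ± 0.19 SE, adjusted p = 3.5e-06). The most abundant elongation factors did not pass, with 0.18 for Eef1a1 (adjusted p = 0.183) and 0.23 for Eef2 (adjusted p = 0.108).

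Protein turnover and folding moved the same way. All 34 constitutive proteasome subunits rose, with and without the conflicting pair, with a median of 1.09. Psma6, a subunit of the core ring, was at 240, 231 and 219 CPM with LPS and 79.1, 72.8 and 72.9 CPM without (1.62 ± 0.08 SE, adjusted p = 2.5e-08). Psmd14 (1.38), the deubiquitinase of the lid, and Psmc5 (1.34), an ATPase of the base, rose too. Of 30 chaperone genes, 24 rose (18 without the conflicting pair, 16 with the marker covariate), led by Cct6a (2.15), Cct3 (2.10) and Cct8 (1.83) of the ring that folds actin and tubulin and by Hspa9 (1.82), the mitochondrial Hsp70. The stress-inducible Dnajb1 was not called (-0.53, adjusted p = 0.0609; 0.0026 in the fit blocked on replicate number). Of 36 genes of the unfolded protein and integrated stress responses, 31 rose (26 without the conflicting pair), median 1.07. They included Ddit4, an inhibitor of mTORC1, at 405 to 485 CPM with LPS (4.08 ± 0.20 SE, adjusted p = 2.2e-08), Mthfd2 (2.44), a mitochondrial folate enzyme, and the sensor Atf6 (1.97). Of 42 splicing factors, 38 rose (31 without the conflicting pair, 25 with the marker covariate), median 0.86, for example Snrpd1 (1.86), a core spliceosome protein. Only the kinase Clk1 was called lower among these 42 (-0.41).

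**Figure D2:**
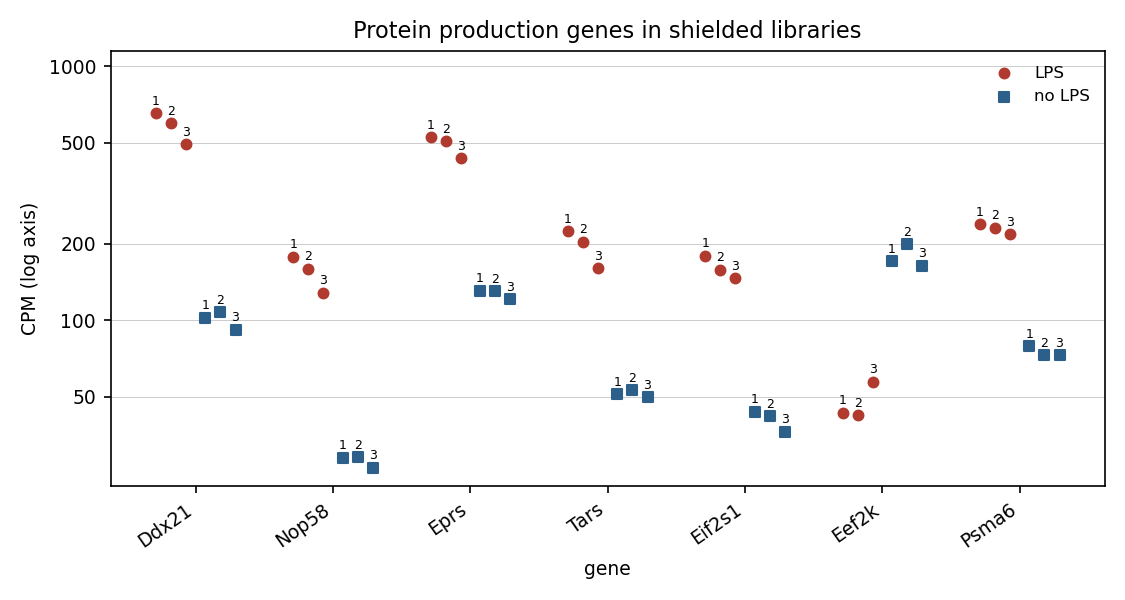
Level in CPM (log axis) of 7 genes of ribosome biogenesis, tRNA charging, translation and the proteasome in each shielded library, circles for LPS and squares for no LPS, numbered by replicate. The 3 LPS libraries lie above the 3 without LPS for Ddx21, Nop58, Eprs, Tars, Eif2s1 and Psma6 and below them for Eef2k.

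At the receptor level, 15 of 20 genes of LPS recognition rose and 3 fell (11 and 2 without the conflicting pair), median 0.53. With the marker covariate 5 were called higher and 2 lower, with a median of 0.25. Tlr4 itself was at 51.0, 41.5 and 49.1 CPM with LPS and 57.6, 63.7 and 53.3 CPM without (-0.30 ± 0.09 SE, adjusted p = 0.0103); its call was lost without the conflicting pair and in the fit blocked on replicate number (adjusted p = 0.0502). Ly96, which encodes MD-2, fell from 8.71 to 10.2 CPM to 5.50 to 7.08 CPM, while the adaptor Tirap rose (1.32). Scaling by library totals gave 9 higher and 4 lower. Among other sensors, 14 of 25 rose and 3 fell, with 12 and 5 under the marker covariate and 12 and 7 under library totals. Tlr2, the receptor for bacterial lipopeptides, went from 317, 272 and 258 CPM to 2891, 2422 and 1787 CPM (3.07 ± 0.21 SE, adjusted p = 1.6e-07). Tlr7 (2.06), Ifih1 (2.21) and Ddx58 (1.76), sensors of single- and double-stranded RNA, rose as well. Cd180, a Toll-like homologue that restrains TLR4 signalling in macrophages, was at 23.9, 26.1 and 30.0 CPM with LPS and 234, 289 and 227 CPM without (-3.23 ± 0.23 SE, adjusted p = 2.9e-07), the largest fall of the sensors tested. Tlr12 also fell (-1.84).

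Feedback genes of the same pathways rose. Of 29 genes of NF-kB and its feedback, 25 rose (23 without the conflicting pair), median 1.64. Nfkbia, which encodes the inhibitor IkB-alpha and is itself an NF-kB target, was at 903, 900 and 787 CPM with LPS and 203, 232 and 177 CPM without (2.08 ± 0.14 SE, adjusted p = 1.4e-07). The kinase Map3k8 (2.79) and the adaptor Traf1 (2.60) rose more. Cyld (0.08, adjusted p = 0.468), a deubiquitinase of the pathway, was not called, and with library totals it was called lower. MAP kinase phosphatases and mRNA decay factors split, with 10 of 19 higher and 4 lower (4 and 2 with the marker covariate). Dusp1 (1.73), Dusp2 (2.89) and Dusp16 (1.75) rose, and Dusp7 (-1.19) fell. The immediate-early group was mixed, with 11 of 27 higher and 5 lower: Batf (2.56) rose, Egr3 (-2.47) and Fosb (-1.54) fell, and Jun was not called (-0.23, adjusted p = 0.42). With library totals that split became 9 and 9, and with the marker covariate 7 and 5. Of 29 interferon regulatory factors and JAK-STAT genes, 20 rose and 1 fell, median 1.16 (17 and 3 with the marker covariate, 17 and 8 under library totals), among them Stat3 (2.41) and Stat2 (1.88), while Irf4 fell (-0.92).

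Secreted ligands followed. Of 31 inflammatory cytokines tested, 22 rose and 8 fell, median 1.73, with 22 and 6 without the conflicting pair. Tnf was at 509, 383 and 294 CPM with LPS and 70.8, 97.1 and 53.0 CPM without (2.42 ± 0.27 SE, adjusted p = 1.3e-05). Il6 was at 42.2, 27.1 and 32.8 CPM and 5.80, 6.69 and 5.07 CPM (2.54 ± 0.27 SE, adjusted p = 6.6e-06), and Il1b at 590, 283 and 407 CPM and 135, 143 and 107 CPM (1.73 ± 0.28 SE, adjusted p = 0.00023). For all 3 the groups did not overlap, with Il1b the closest. Ifnb1, which encodes interferon beta, rose at a low level, from 0.259 to 0.355 CPM to 1.15 to 2.08 CPM (2.34). Il10, an anti-inflammatory cytokine, was the 1 member not called: it was at 3.17, 1.46 and 5.22 CPM with LPS and 2.85, 2.04 and 1.84 CPM without, and the groups overlapped (adjusted p = 0.198). Il16 (-0.77), Tgfb2 (-1.94) and Tnfsf13b (-0.70), which encodes the B cell factor BAFF, fell. Of 28 chemokines tested, 18 rose and 6 fell, median 1.82, the same counts as without the conflicting pair (16 and 3 with the marker covariate). Cxcl10, a ligand of CXCR3, was at 549, 392 and 346 CPM with LPS and 32.3, 28.9 and 18.4 CPM without (4.02 ± 0.33 SE, adjusted p = 1.5e-06). Ccl12 was at 1439, 725 and 800 CPM and 79.4, 57.8 and 56.2 CPM (3.94 ± 0.25 SE, adjusted p = 1.6e-07), with LPS library 1 well above the other LPS libraries, and Ccl9 at 684, 642 and 517 CPM and 83.7, 96.5 and 77.7 CPM (2.84 ± 0.20 SE, adjusted p = 2e-07). Cxcl12, the ligand of CXCR4, fell to 1.08, 1.70 and 2.24 CPM from 14.9, 21.6 and 19.2 CPM (-3.47 ± 0.32 SE, adjusted p = 2.7e-06), beside the endothelial markers Cldn5 (-2.74) and Tek (-3.71). Those 2 belong to a list of 8 endothelial markers in which 4 fell and 2 rose, with a median change of -0.62. The list's mean log2 CPM was 4.18 to 4.48 with LPS and 4.70 to 5.45 without. Its summed level was higher with LPS, at 485 to 640 CPM against 269 to 433 CPM, mostly from the glucose transporter gene Slc2a1. The part of endothelial RNA in the fall was not tested. Ccl6 was not called (0.10, adjusted p = 0.535).

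**Figure D3:**
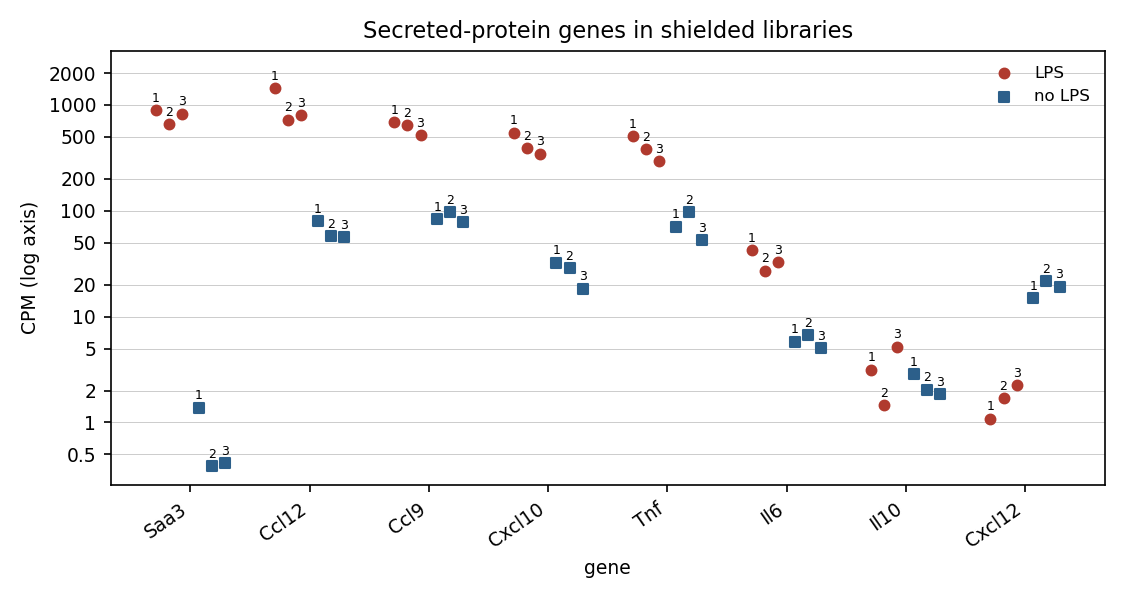
Level in CPM (log axis) of 8 secreted-protein genes in each shielded library, circles for LPS and squares for no LPS, numbered by replicate. LPS libraries lie above the others for Saa3, Ccl12, Ccl9, Cxcl10, Tnf and Il6, the groups mix for Il10, and Cxcl12 is lower with LPS.

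Receptors for these ligands moved less evenly. Of 42 cytokine receptors, 23 rose and 3 fell, median 0.48, with 19 and 11 under library totals and 18 and 8 with the marker covariate. Il15ra, which presents IL-15, was at 129, 120 and 92.2 CPM with LPS and 7.71, 9.82 and 7.45 CPM without (3.77 ± 0.21 SE, adjusted p = 5.8e-08). Il1r2, the decoy receptor of IL-1, was at 55.1, 60.0 and 62.2 CPM and 3.84, 3.33 and 2.67 CPM (4.17 ± 0.20 SE, adjusted p = 1.9e-08). Csf2rb (2.50), the shared chain of the GM-CSF receptor, rose, whereas Csf1r was not called (0.07, adjusted p = 0.607) and was called lower under library totals. Of 17 chemokine receptors tested, 7 rose and 5 fell (5 and 3 with the marker covariate). Ccr7, which guides leukocytes to lymph nodes, went from 0.780 to 1.62 CPM to 31.8 to 50.8 CPM (5.03 ± 0.38 SE, adjusted p = 6.7e-07), while Cx3cr1, the microglial fractalkine receptor, fell from 3890, 4498 and 3654 CPM to 2754, 2035 and 2249 CPM (-0.78 ± 0.18 SE, adjusted p = 0.00243). Of 27 Fc and sialic acid binding genes tested, 15 rose and 6 fell, median 0.31, with 11 and 10 under library totals. Fcgr4, a receptor for IgG, was at 389, 331 and 317 CPM with LPS and 39.7, 33.2 and 33.4 CPM without (3.29 ± 0.12 SE, adjusted p = 6e-09), and Fcgr3 (1.99) and the inhibitory Fcgr2b (2.34) rose with it.

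The interferon-stimulated antiviral list rose almost whole, with 52 of 55 higher and 1 lower, Uba7 (-0.41), which activates ISG15, at a median of 1.84 (50 higher without the conflicting pair). Isg15, a ubiquitin-like modifier, was at 111, 66.3 and 88.4 CPM with LPS and 9.46, 4.91 and 5.05 CPM without (3.76 ± 0.30 SE, adjusted p = 1.1e-06). Ifit1, which binds foreign RNA caps, was at 60.1, 41.5 and 51.5 CPM and 6.59, 4.88 and 4.64 CPM (3.24 ± 0.20 SE, adjusted p = 9.1e-08). Ifi35, with 81.8, 68.5 and 68.9 CPM against 18.0, 16.9 and 16.8 CPM, separated cleanly as well (2.08 ± 0.08 SE, adjusted p = 9.4e-09). Guanylate-binding and immunity-related GTPases, which attack intracellular vacuoles, rose in 15 of 17 cases, median 2.10. Gbp2 was at 352, 210 and 202 CPM with LPS and 16.0, 17.9 and 13.6 CPM without (4.01 ± 0.32 SE, adjusted p = 1.3e-06), and Gbp7 rose by 2.10. Irgm2 was not called on this scale (0.00, adjusted p = 0.989) and was called lower with library totals.

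The upstream sequence of genes from these groups was examined for letters of known motifs in the RefSeq promoter table (build GRCm38.p6, which differs from the build of the counts). The windows are the 250 bases before an annotated start, 5′ to 3′ on the gene's strand. Motifs were searched on both strands: the NF-kB consensus by name, the interferon-stimulated response element (ISRE) as GAAA, any 2 bases and GAAA again, and the AP-1 site as TGANTCA. Capitals mark matches, and overlapping matches are joined. The windows shown carry a chemokine, 3 interferon-responsive genes, an acute-phase gene and a cytokine, with a ribosome biogenesis gene for contrast.
Cxcl10 (chr5:92348890-92349139, minus strand): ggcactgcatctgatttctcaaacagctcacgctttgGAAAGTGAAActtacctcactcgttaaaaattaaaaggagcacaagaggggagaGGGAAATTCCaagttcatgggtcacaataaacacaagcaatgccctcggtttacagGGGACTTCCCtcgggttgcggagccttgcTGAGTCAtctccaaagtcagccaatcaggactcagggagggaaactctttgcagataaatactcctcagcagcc
Isg15 (chr4:156200819-156201068, minus strand): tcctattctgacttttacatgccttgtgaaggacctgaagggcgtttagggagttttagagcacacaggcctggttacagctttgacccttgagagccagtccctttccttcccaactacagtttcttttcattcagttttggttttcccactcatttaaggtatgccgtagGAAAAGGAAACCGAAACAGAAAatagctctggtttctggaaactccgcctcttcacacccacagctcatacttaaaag
Ifit1 (chr19:34640639-34640888, plus strand): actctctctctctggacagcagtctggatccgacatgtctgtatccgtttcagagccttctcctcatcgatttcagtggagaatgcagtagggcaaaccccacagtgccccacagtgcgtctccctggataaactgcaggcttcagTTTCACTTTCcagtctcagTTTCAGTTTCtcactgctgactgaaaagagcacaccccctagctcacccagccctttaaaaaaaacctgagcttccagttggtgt
Gbp2 (chr3:142620413-142620662, plus strand): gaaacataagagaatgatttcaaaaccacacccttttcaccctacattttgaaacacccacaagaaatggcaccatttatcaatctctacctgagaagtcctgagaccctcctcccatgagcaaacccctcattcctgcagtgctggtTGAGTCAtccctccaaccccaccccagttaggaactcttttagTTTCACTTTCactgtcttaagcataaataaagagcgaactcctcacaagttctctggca
Saa3 (chr7:46715677-46715926, minus strand): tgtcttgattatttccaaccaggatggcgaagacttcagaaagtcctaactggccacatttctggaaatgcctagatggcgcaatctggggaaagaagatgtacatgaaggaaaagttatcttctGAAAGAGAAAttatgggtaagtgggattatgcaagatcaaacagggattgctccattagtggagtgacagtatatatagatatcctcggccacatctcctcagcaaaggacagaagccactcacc
Il6 (chr5:30012864-30013113, plus strand): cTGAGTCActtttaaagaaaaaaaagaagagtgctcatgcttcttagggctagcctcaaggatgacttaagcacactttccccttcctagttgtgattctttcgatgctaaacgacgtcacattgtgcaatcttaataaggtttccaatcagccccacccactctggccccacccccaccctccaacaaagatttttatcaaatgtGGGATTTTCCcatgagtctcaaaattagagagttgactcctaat
Nop58 (chr1:59684756-59685005, plus strand): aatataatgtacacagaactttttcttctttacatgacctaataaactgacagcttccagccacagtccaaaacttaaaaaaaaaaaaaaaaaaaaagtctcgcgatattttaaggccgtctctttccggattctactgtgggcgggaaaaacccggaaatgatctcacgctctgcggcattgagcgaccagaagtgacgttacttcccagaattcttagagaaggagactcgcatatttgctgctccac

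The Cxcl10 window held 2 NF-kB matches, 159 to 150 and 103 to 94 bases before the start, an ISRE match 213 to 204 bases before it and an AP-1 match 74 to 68 bases before it. Isg15 held 3 overlapping ISRE matches between 78 and 57 bases before its start, Ifit1 held 2 and Gbp2 held 1 beside an AP-1 match. The Il6 window held 1 NF-kB match 44 to 35 bases before the start, and the Nop58 window held none of the 3 motifs. Of 32851 windows for 27025 genes, 2.98% held an ISRE match, 3.9% an NF-kB match and 6.75% an AP-1 match. An ISRE match occurred in 9 of the 10 windows available for the guanylate-binding and immunity-related GTPases (90%), in 13 of 54 for the antiviral list (24.1%) and in 0 of 38 for ribosome biogenesis. NF-kB matches occurred in 6 of 25 chemokine windows (24%), 6 of 30 cytokine windows (20%) and 1 of 38 ribosome biogenesis windows (2.63%). Among genes called at least 8-fold higher, 165 windows for 140 genes gave 11.5% with an ISRE match, 11.5% with an NF-kB match and 17% with an AP-1 match, against 2.75%, 4.76% and 4.83% of the 16181 windows of all genes tested. For genes called at least 2-fold higher these shares were 5.23%, 5.88% and 6.08%, and for those at least 2-fold lower 2.26%, 5.09% and 5.24%. A match describes these letters only and does not show that a factor binds.

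Acute-phase and antimicrobial genes had a high median change. Of 28 acute-phase and antimicrobial genes tested, 22 rose and 2 fell, median 2.94, with 18 and 2 without the conflicting pair. Lcn2, which captures bacterial iron carriers, was at 279, 332 and 429 CPM with LPS and 29.2, 15.2 and 11.1 CPM without (4.22 ± 0.71 SE, adjusted p = 0.0004). Fpr1, a receptor for bacterial formyl peptides, was at 34.2, 23.4 and 31.4 CPM and 1.12, 0.646 and 0.737 CPM (5.13 ± 0.30 SE, adjusted p = 7.4e-08). Beside these rises, among the monocyte and neutrophil markers Plac8 (2.67) and Cxcr2 (2.72) rose, Ccr2 (-1.57) and Elane (-3.30, a call lost without the conflicting pair and with the marker covariate) fell, and S100a8 was not called (1.03, adjusted p = 0.0952); their part in the rises was not tested. Lyz2, lysozyme, went the other way, to 658, 656 and 894 CPM from 2564, 1122 and 1447 CPM (-1.22 ± 0.27 SE, adjusted p = 0.00196), with no-LPS library 1 far above the rest; its call was lost with the marker covariate (adjusted p = 0.13). Of 22 complement genes tested, 12 rose and 1 fell, median 0.48 (7 and 1 with the marker covariate), and C5ar1, the receptor of the fragment C5a, was at 757, 673 and 574 CPM with LPS and 86.3, 88.1 and 83.4 CPM without (2.96 ± 0.17 SE, adjusted p = 4.3e-08). C1qc was not called (0.10, adjusted p = 0.366); under library totals it was called lower and the complement list split into 6 higher and 7 lower. Nos2, the inducible nitric oxide synthase, was at 34.5, 7.28 and 7.20 CPM with LPS, 1 library far above the other two, and 0.323, 0.614 and 0.737 CPM without (4.88 ± 0.64 SE, adjusted p = 6.1e-05). The arginine transporter Slc7a1 (3.12), Gch1 (1.88), which starts synthesis of the cofactor of that enzyme, and Ass1 (4.99), which recycles citrulline to arginine, rose with it. Of these 39 nitric oxide, arginine and oxidant genes, 27 rose and 5 fell, median 0.81 (23 and 10 under library totals, 20 and 3 with the marker covariate), including thioredoxin reductase Txnrd1 (2.85) upward and catalase Cat (-0.44) downward. Of 28 eicosanoid enzymes and receptors tested, 8 rose and 10 fell, median 0.01, shares near those over all genes. Within that list Ptgs2, the inducible cyclooxygenase, was at 411, 216 and 293 CPM with LPS and 38.8, 38.4 and 31.6 CPM without (3.08 ± 0.27 SE, adjusted p = 1.9e-06), and the prostaglandin E synthase Ptges rose (3.97), while Hpgd, which inactivates prostaglandins, fell from 287 to 317 CPM to 36.1 to 56.1 CPM (-2.66 ± 0.26 SE, adjusted p = 5e-06).

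In the glycolytic list 19 of 34 genes tested rose and 10 fell (14 and 5 with the marker covariate). Ldha, lactate dehydrogenase A, was at 1038, 943 and 782 CPM with LPS and 173, 159 and 163 CPM without (2.48 ± 0.12 SE, adjusted p = 1.7e-08). Pfkfb3, which makes the activator of phosphofructokinase, was at 2116, 2296 and 1457 CPM and 250, 290 and 225 CPM (2.94 ± 0.21 SE, adjusted p = 2.4e-07), and the glucose transporter Slc2a1 rose (1.95). Hk1 (-0.88), Pfkm (-1.55) and the transporter Slc2a8 (-1.95) fell. In the tricarboxylic acid cycle list 23 of 33 rose and 7 fell (17 and 3 with the marker covariate): Idh3a rose (1.67 ± 0.10 SE, adjusted p = 4.3e-08), whereas Idh1 fell from 37.5 to 43.5 CPM to 10.9 to 15.6 CPM (-1.68 ± 0.14 SE, adjusted p = 6e-07) and Idh2 fell too (-1.12). Of 34 pentose phosphate and nucleotide synthesis genes, 26 rose (24 without the conflicting pair), for example Atic of purine synthesis, from 54.2 to 59.8 CPM to 234 to 285 CPM (2.16 ± 0.11 SE, adjusted p = 2e-08), and Ctps of pyrimidine synthesis (2.64). Nuclear genes of oxidative phosphorylation rose in 60 of 73 cases by little, median 0.47, with 35 called higher without the conflicting pair and 27 under library totals. Cytochrome c, Cycs, rose from 17.7 to 20.3 CPM to 67.3 to 81.9 CPM (1.95 ± 0.09 SE, adjusted p = 1.8e-08). The 8 genes tested that mitochondrial DNA encodes had a median of 0.00, with 1 higher and 1 lower, and under library totals a median of -0.34, with 0 higher and 6 lower. Mitochondrial genes held 1.53 to 1.93% of counts with LPS and 2.16 to 2.18% without. On the TMM scale mt-Cytb was at 3321 to 3664 CPM with LPS and 3284 to 3608 CPM without (adjusted p = 0.959).

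Iron and zinc handling changed with these. Of 26 iron and haem genes tested, 16 rose and 6 fell (16 and 5 without the conflicting pair). Ferroportin, Slc40a1, the only known iron exporter, fell to 16.9, 24.3 and 23.8 CPM from 141, 167 and 136 CPM (-2.77 ± 0.28 SE, adjusted p = 8.4e-06). Ferritin heavy chain, Fth1, rose to 9026, 7609 and 6245 CPM from 2422, 2069 and 1961 CPM (1.83 ± 0.17 SE, adjusted p = 1.2e-06), while the light chain gene Ftl1 was not called (-0.15, adjusted p = 0.323). The transferrin receptor Tfrc was at 257, 199 and 176 CPM with LPS and 31.5, 33.6 and 35.1 CPM without (2.66 ± 0.16 SE, adjusted p = 6.3e-08). Of 20 metallothionein and zinc transporter genes, 15 rose and 2 fell. Slc39a14, an importer of zinc and iron, was at 589, 591 and 394 CPM with LPS and 23.1, 25.0 and 23.8 CPM without (4.45 ± 0.20 SE, adjusted p = 1.7e-08), and metallothionein Mt1 rose from 43.6 to 53.8 CPM to 365 to 579 CPM (3.25). The cystine transporter Slc7a11 was at 266, 314 and 170 CPM and 7.24, 7.69 and 7.56 CPM (5.06 ± 0.37 SE, adjusted p = 6.8e-07). Of 40 genes of cholesterol efflux, oxysterols and lipid storage tested, 18 rose and 18 fell. Ch25h, which makes 25-hydroxycholesterol, rose from 3.06 to 4.78 CPM to 49.0 to 104 CPM (4.33 ± 0.33 SE, adjusted p = 8e-07), and Cyp27a1, which makes 27-hydroxycholesterol, fell from 53.8 to 65.3 CPM to 7.90 to 11.8 CPM (-2.54 ± 0.15 SE, adjusted p = 4.9e-08), as did the exporter Abcg1 (-1.65).

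Antigen presentation differed by class. In the class I and immunoproteasome list 21 of 25 rose and 2 fell, median 0.86, among them the transactivator Nlrc5 (2.48 ± 0.20 SE, adjusted p = 7.8e-07) and the proteasome activator Psme2 (1.78). In the class II and co-stimulation list 10 of 25 tested rose and 9 fell (5 and 11 with the marker covariate). These shares were near the 32.4% higher and 35.1% lower over all genes. Its transactivator Ciita fell from 5.85 to 6.75 CPM to 1.22 to 1.72 CPM (-2.02 ± 0.20 SE, adjusted p = 2.3e-06), while the co-stimulatory Cd86 (1.45) and the checkpoint ligand Cd274 (3.04), known as PD-L1, rose. Of 37 autophagy genes, 19 fell and 10 rose, median -0.26 (15 and 5 with the marker covariate, 27 and 5 under library totals). Of 52 lysosomal genes 21 fell and 16 rose, median -0.05, shares near the 35.1% lower and 32.4% higher over all genes, with 32 and 8 under library totals and 19 and 8 with the marker covariate. Ulk1, the kinase that starts autophagy, fell from 49.3 to 60.1 CPM to 23.1 to 24.6 CPM (-1.16 ± 0.11 SE, adjusted p = 2.4e-06). Sgsh (-3.01) and Naglu (-1.54), enzymes of heparan sulphate breakdown, fell, whereas the tetraspanin Cd63 (1.32) and the autophagy receptor Tax1bp1 (1.05) rose. Death genes of both signs rose: the anti-apoptotic Bcl2a1a (2.76), the receptor Fas (3.46) and the necroptosis kinase Ripk3 (2.02), within a BCL2 and death receptor list of 19 higher and 7 lower of 37 (18 and 12 under library totals). The cell cycle inhibitor Cdkn1a was at 238, 190 and 168 CPM with LPS and 30.0, 31.1 and 29.0 CPM without (2.72 ± 0.14 SE, adjusted p = 2.7e-08).

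Microglial identity genes leaned the other way. Of 41, 21 fell and 4 rose, median -0.31 (14 and 3 without the conflicting pair). P2ry12, the ADP receptor of resting microglia, was at 524, 631 and 584 CPM with LPS and 2115, 2718 and 2009 CPM without (-1.98 ± 0.19 SE, adjusted p = 2.1e-06). Gpr34, a lysophosphatidylserine receptor, was at 67.8, 63.4 and 103 CPM and 819, 965 and 812 CPM (-3.47 ± 0.24 SE, adjusted p = 2.7e-07). For both genes every LPS library lay below every library without LPS. Sall1, the zinc finger factor that maintains microglial identity, fell to 237, 214 and 161 CPM from 471, 700 and 500 CPM (-1.45 ± 0.39 SE, adjusted p = 0.00684), and Tmem119 fell slightly, to 1324 to 1621 CPM from 1855 to 2104 CPM (-0.44 ± 0.12 SE, adjusted p = 0.00585); both calls were lost without the conflicting pair, and that of Sall1 with the marker covariate (adjusted p = 0.0808). Cst3 did not pass (0.07, adjusted p = 0.657). The metabolite receptor Gpr84 rose within the list, from 162 to 188 CPM to 1068 to 1915 CPM (3.11 ± 0.21 SE, adjusted p = 1.7e-07). Of 42 lineage transcription factors, 15 rose and 13 fell, shares near the 32.4% higher and 35.1% lower over all genes. Cebpd (2.25) and Runx1 (2.16) were up and Maf (-1.37) and Cbfa2t3 (-4.12) down. Of 25 disease-associated microglia genes, 9 rose and 12 fell. Spp1, osteopontin, was at 361, 379 and 340 CPM with LPS and 21.6, 14.4 and 16.3 CPM without (4.37 ± 0.23 SE, adjusted p = 4e-08). Trem2, a lipid receptor, fell from 1696 to 1749 CPM to 977 to 1152 CPM (-0.72 ± 0.09 SE, adjusted p = 2.1e-05), and Igf1 from 11.6 to 22.1 CPM to 1.60 to 2.79 CPM (-2.84 ± 0.28 SE, adjusted p = 5.7e-06). Apoe was at 2939, 2431 and 4205 CPM with LPS and 23550, 6511 and 11400 CPM without (-2.11 ± 0.40 SE, adjusted p = 0.00081), with no-LPS libraries 1 and 3 far above library 2; with the marker covariate its call was lost (-1.81, adjusted p = 0.0819).

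Among the 20 largest falls were genes of several kinds, and other-cell markers fell in the same libraries. The sorting nexin gene Snx29 was at 4.31, 4.75 and 4.93 CPM with LPS and 50.2, 60.0 and 48.5 CPM without (-3.50 ± 0.11 SE, adjusted p = 5.6e-09). Npnt, the matrix protein nephronectin, was at 10.6, 11.3 and 11.1 CPM and 123, 114 and 99.6 CPM (-3.35 ± 0.16 SE, adjusted p = 2e-08), and Ighm, the immunoglobulin mu heavy chain, at 46.0, 36.1 and 35.9 CPM and 346, 379 and 316 CPM (-3.14 ± 0.21 SE, adjusted p = 1.7e-07). These 3 were even across libraries of a group. Slco1a4 (-4.58 ± 0.37 SE, adjusted p = 1.6e-06), Slco1c1 (-3.24) and Ptprb (-3.50 ± 0.33 SE, adjusted p = 4.3e-06), known from brain endothelium, fell beside 4 of 8 endothelial markers, among them Tek, at 1.02, 1.66 and 1.70 CPM with LPS and 13.6, 26.0 and 17.9 CPM without. The other markers of that list included 2 that rose, and its summed level was 485 to 640 CPM with LPS and 269 to 433 CPM without, mostly from Slc2a1 at 330 to 519 CPM with LPS; its part in these falls was not tested. Tppp (-3.71 ± 0.37 SE, adjusted p = 7.4e-06), known from oligodendrocytes, fell beside 8 of 8 oligodendrocyte markers (1 of 8 without the conflicting pair), such as Mog, at 0.874, 4.63 and 6.63 CPM with LPS and 15.6, 15.4 and 29.6 CPM without. Of 9 neuron markers 8 fell (3 without the conflicting pair). Within the LPS group these neuron and oligodendrocyte levels were lowest in library 1 and highest in library 3. With the marker covariate Snx29 changed by -3.45, Npnt by -3.18, Ighm by -3.23 and Tppp by -2.80 (adjusted p = 0.00068). Slco1a4 changed by -3.55 (adjusted p = 8.9e-05) and Ptprb by -3.18 (adjusted p = 0.00233), and all 6 were called lower. Mog was not (-0.41, adjusted p = 0.337). It is among the markers averaged into the covariate, so this fit cannot inform on Mog. The B cell markers were lower with LPS beside Ighm, and their part in its fall was not tested.

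**Figure D4:**
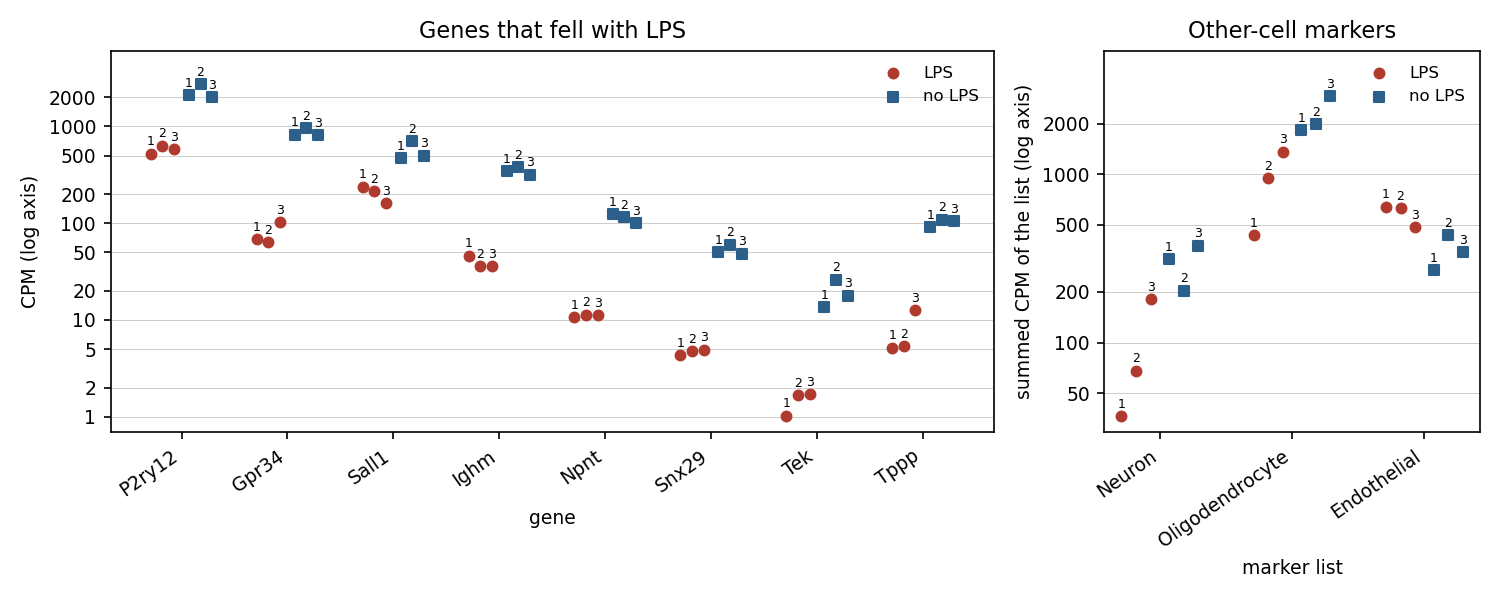
Left, level in CPM (log axis) of 8 genes that fell with LPS in each shielded library; right, summed CPM (log axis) of the neuron, oligodendrocyte and endothelial marker lists in the same libraries, circles for LPS and squares for no LPS, numbered by replicate. The LPS libraries lie below the others for all 8 genes. The neuron and oligodendrocyte sums are lower with LPS. The endothelial sum is higher with LPS, mostly from Slc2a1, while the median log2 change of its markers is -0.62.

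Targets of glucocorticoids, the adrenal hormones released in systemic inflammation, rose in 16 of 20 cases, median 1.73, with 16 also without the conflicting pair. Fkbp5, a feedback chaperone of the glucocorticoid receptor, was at 1270, 1450 and 1306 CPM with LPS and 101, 105 and 88.3 CPM without (3.77 ± 0.17 SE, adjusted p = 1.7e-08). Tsc22d3, which encodes the anti-inflammatory GILZ, was at 308, 372 and 352 CPM and 68.9, 68.4 and 64.1 CPM (2.36 ± 0.10 SE, adjusted p = 9.4e-09). The clock list held 9 rises and 10 falls among 22 (4 and 7 with the marker covariate), beside 32.4% higher and 35.1% lower over all genes. Per1 (1.72), Cry1 (2.35) and Nfil3 (3.72) rose, and Dbp (-3.28), Nr1d1 (-1.98) and Nr1d2 (-1.08) fell. Proteolysis and motility genes also rose: 25 of 37 matrix and protease genes, including Mmp19, from 1.55 to 1.97 CPM to 23.4 to 24.5 CPM (3.78 ± 0.13 SE, adjusted p = 5.7e-09), and 30 of 48 actin and migration genes (24 under library totals), including Marcksl1 (3.51) and Actr3 (1.49). Integrin alpha 5, Itga5, was at 341, 306 and 220 CPM with LPS and 31.1, 33.0 and 29.9 CPM without (3.21 ± 0.18 SE, adjusted p = 3.9e-08).

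The shielded response was set beside that of unshielded mice, fitted in the same model with their own controls. There 4585 genes (24.3%) were called higher and 3543 (18.8%) lower. The unshielded LPS libraries were the deepest, at 56776710 to 60495968 counts, against 18090977 to 40792878 in unshielded libraries without LPS. The 20 most abundant genes held 18.8 to 20.1% and 18.0 to 21.1% of counts in these groups. In shielded libraries they held 11.4 to 12.2% with LPS and 14.5 to 16.1% without. The part of depth in the differences below was not tested. The difference of the 2 responses was called for 2512 genes (13.3%), 1745 with the more positive change in shielded mice (9.25%) and 767 with the more negative (4.06%). This count fell to 148 without the conflicting pair and rose to 6391 without shielded LPS library 3. The lists below had high counts for the difference beside the 9.25% over all genes. The difference was called toward shielded mice for 38 of 40 ribosome biogenesis genes, 16 of 20 tRNA synthetases, 24 of 44 translation factors, 23 of 42 splicing factors and 17 of 34 pentose phosphate and nucleotide genes. It was called for 0 of 82 cytosolic ribosomal protein genes (median difference 0.04). Leaving out 1 library at a time gave 35 to 40, 14 to 18, 15 to 33, 14 to 30 and 13 to 20 for the lists called; counts over 1.5 times lower came for translation factors without shielded no-LPS library 3 (15) and for splicing factors without that library or unshielded no-LPS library 1 (14 each) or without shielded no-LPS library 2 or unshielded LPS library 1 or 3 (15 each). The marker covariate gave 14 splicing factors. The fit without the low-count filter gave 13 translation factors, 13 splicing factors and 10 of 35 pentose phosphate and nucleotide genes. The 5 lists' median changes in unshielded mice were 0.94, 0.76, 0.58, 0.34 and 0.44. Without the conflicting pair those counts were 8, 4, 5, 0 and 2. Their median differences were then 0.99, 0.74, 0.46, 0.43 and 0.43, against 0.99, 0.75, 0.53, 0.46 and 0.50 with the pair kept. The difference was called for 2 of 55 antiviral genes, both toward unshielded mice, and for 2 of 29 NF-kB genes, both toward shielded mice. Those counts were near the 4.06% toward unshielded and 9.25% toward shielded mice over all genes. Without shielded LPS library 3 the antiviral counts were 5 toward shielded and 3 toward unshielded mice, and 7 NF-kB genes were called; without unshielded no-LPS library 2 the counts were 0 and 1, and without unshielded LPS library 2 4 NF-kB genes were called. Of 30 genes of a marrow-derived brain macrophage list, compiled from general knowledge and possibly from work on such samples, 15 fell and 8 rose in shielded mice (median -0.57; 9 and 8 with the marker covariate), and 5 fell and 14 rose in unshielded mice (median 0.54). The difference was called toward shielded mice for 4 of them and away for 9, with a median difference of -0.69 (-0.93 without the conflicting pair). The list summed to 27350, 9643 and 14570 CPM in shielded no-LPS libraries 1, 2 and 3. Without the pair only library 1 is left, and leaving out library 1 instead gave -0.58. The count away was 6 without shielded LPS library 2, shielded no-LPS library 1, unshielded LPS library 3 or unshielded no-LPS library 2 or 3. It was 14 without shielded LPS library 3.

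**Figure D5:**
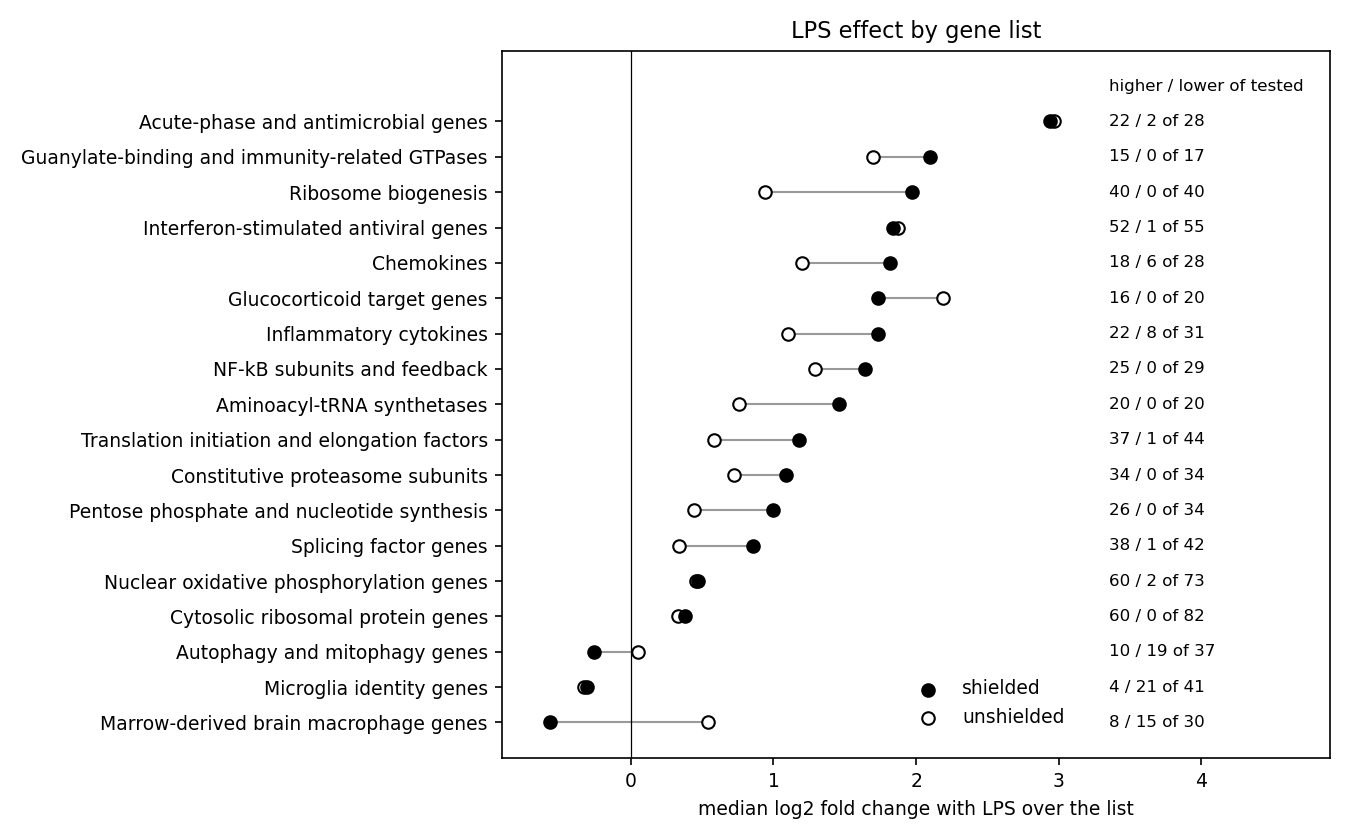
Median log2 change with LPS of 18 gene lists in shielded mice (filled circles) and unshielded mice (open circles), joined by a line, with the numbers called higher and lower of those tested in shielded mice at the right. Ribosome biogenesis, tRNA synthetases and translation factors show the longest lines among protein production lists. The marrow-derived list (-0.57 and 0.54) and the autophagy list (-0.26 and 0.05) have medians of opposite sign in shielded and unshielded mice.

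Among the 8 largest changes in each direction, the difference itself was called for 8 genes. Picking genes by the size of the change in shielded mice favours a larger change there than in unshielded mice. Il12b, a subunit of IL-12 and IL-23, was at 230, 68.5 and 87.7 CPM with LPS and 3.02, 1.32 and 1.08 CPM without in shielded mice, and Ikbke, a kinase upstream of interferon genes, at 96.3, 79.8 and 84.8 CPM and 1.49, 1.23 and 1.28 CPM. Both rose more in shielded mice. Snx29, Cbfa2t3, Slco1a4, Tppp, Ptprb and Gpr34 fell further in shielded mice. Of these, Snx29 kept the call without the conflicting pair (adjusted p = 0.0151). The calls of Tppp, Ptprb and Gpr34 were the least firm, made in 9, 6 and 6 of the 21 alternatives run.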

How the data were processed

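RNA was linearly amplified before library preparation, per the labels' protocols. The submitters' processing notes name FastQC, STAR, HTSeq and genome build mm9; for their versions, the annotation and the strand setting nothing is given in the sources used here. The authors deposited raw read counts for 36491 gene identifiers in 12 libraries. Symbols came from a reference table (254 identifiers had none). The members, lists and the rule for named genes were chosen with earlier results of these data known. The rule takes the 20 largest changes each way among called genes without overlap of the groups and with mean log2 CPM from 3 upward, up to 4 called list members each way with the smallest p, up to 2 not called with the highest level, a fixed set, and 10 genes each way with at most 3 counts in each library of 1 group. Differences by shield were read for the 8 largest changes each way.

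Libraries were grouped by title. One edgeR 4.0.16 model (R 4.3.3, TMM scaling, filterByExpr with minimum count 10 and minimum total 15, which kept 18875 genes, robust quasi-likelihood, two-sided) covered all 12 libraries in 4 groups. The SE is the absolute log2 change divided by the root of F. The test was run on simulated counts first. Alternatives were DESeq2 1.42.0, limma 3.58.1 voom, RLE or total scaling, no filter, a replicate block, other sets of libraries and a marker covariate. Deviations of shielded libraries with the same title number correlated at 0.112, 0.194 and 0.547 across genes, though LPS library 1 correlated more with no-LPS library 2 (0.399). The main fit had no replicate block, and pairing by number was used only in an alternative. No pair within a group was a copy (chi-square per degree of freedom 23.5 to 47.2).

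With strand unknown, 40 genes named share an exon with a neighbour and are uncertain: Cbfa2t3, Cct6a, Cct8, Cd180, Cebpd, Ch25h, Ciita, Csf1r, Cxcl10, Dbp, Dusp1, Eef2k, Fcgr2b, Gas6, Gbp2, Hk1, Ifi35, Ikbke, Il16, Il1b, Irgm2, Jun, Mmp19, Nhp2, Nlrc5, Nr1d1, P2ry12, Pfkm, Plet1os, Rpl13a, Runx1, Sgsh, Slc2a1, Spp1, Stat3, Tax1bp1, Tgfb2, Tirap, Uba7 and Wdr12. Members of families with similar copies (the guanylate-binding, Fc receptor, serum amyloid, metallothionein and Bcl2a1 genes) are uncertain too. Some results are not reported here.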

Additional observations from a re-analysis of the deposited data

Results flagged for a closer look

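For 8 of the 16 genes read for it, the LPS effect differed between shielded and unshielded mice by a test of the difference itself (edgeR quasi-likelihood test). The 16 were chosen as the largest changes in shielded mice, and those same values enter the difference. That choice favours a larger change in shielded mice, so the direction of the 8 differences is not a separate result. Il12b rose by 6.13 (log2) in shielded and by 2.62 in unshielded mice, a difference of 3.51 ± 0.78 (SE, adjusted p = 0.0151). Ikbke rose by 6.02 and 3.84, a difference of 2.18 ± 0.45 (adjusted p = 0.0113). Those were the 2 that rose more with the shield. Among genes that fell, Slco1a4 differed by -2.06 ± 0.47 (adjusted p = 0.0167), Cbfa2t3 by -1.98 ± 0.33 (adjusted p = 0.00372) and Tppp by -1.90 ± 0.48 (adjusted p = 0.0262). Ptprb differed by -1.46 ± 0.42 (adjusted p = 0.0447) and Gpr34 by -1.10 ± 0.31 (adjusted p = 0.0379). Snx29 had the smallest adjusted p of the 8, with -1.35 ± 0.15 (adjusted p = 0.000764). It fell by 3.50 in shielded and by 2.15 in unshielded mice. Without the conflicting pair the differences of the other 7 missed the threshold, with adjusted p from 0.0685 for Cbfa2t3 to 0.272 for Ptprb, while Snx29 was called (0.0151). With the neuron and oligodendrocyte level as a covariate, Tppp (0.0663), Ptprb (0.195) and Gpr34 (0.133) missed it and the other 5 passed. Over the 21 alternatives run, the difference was called in 20 for Snx29, in 19 for Cbfa2t3, in 18 each for Il12b, Ikbke and Slco1a4, in 9 for Tppp and in 6 each for Ptprb and Gpr34; the calls of the last 3 were also lost when shielded LPS library 1 or 2, shielded no-LPS library 2 or 3, unshielded LPS library 1 or 3, or unshielded no-LPS library 1 or 3 was left out.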

How the results depend on the processing

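The 12738 calls for the LPS effect in shielded mice numbered 8369 without the conflicting pair (3845 lower), 6735 with the neuron and oligodendrocyte level as a covariate (3902 higher, 2833 lower) and 0 with the pair grouped by the treatment field (0 higher, 0 lower). Library totals gave 4042 higher. Leaving out 1 shielded library at a time gave 10725 to 13697 calls (5543 to 6523 higher, 5137 to 7174 lower). The 2512 calls for the difference by shield numbered 148 without the pair (65 and 83 toward and away from shielded mice), 1571 without the low-count filter (821 toward), and 0 by the treatment field (0 and 0, with 481 of 20527 genes at an unadjusted p under 0.05). Leaving out 1 library at a time gave 1615 to 6391 (1142 to 3440 toward, 413 to 2951 away); the highest came without shielded LPS library 3, and the lowest, 1615 and 1635, without shielded no-LPS library 3 and unshielded no-LPS library 2. The cause was not tested. In the pairing check the replicate block gave 11809 calls in the shielded libraries alone (5811 higher, 5998 lower) and 2385 for the difference (1578 and 807); among the genes named it changed the call of Tlr4 and Dnajb1 for the LPS effect and of Gpr34 and Il1rn for the difference, and no other. Library totals turned C1qc (-0.25), Csf1r (-0.28), Cyld (-0.27) and Irgm2 (-0.35) to lower. Grouping by the treatment field turned the differences of Slco1a4 (1.72), Cbfa2t3 (1.17), Tppp (0.91), Snx29 (1.16), Ptprb (1.70) and Gpr34 (1.38) to positive values, none called. Of 190 genes named with values, Elane, Mog, Sall1, Tlr4, Tmem119 and Uba7 lost the call without the pair, and none gained or reversed one; with the marker covariate Apoe, Elane, Lyz2, Mog and Sall1 lost it and Mertk gained it. Mog is itself among the markers averaged into that covariate. DESeq2, limma voom and the RLE size factors gave both counts within 1.5 times. Depth limits genes of low level: 15166 to 18977 genes had at least 10 counts in a shielded library.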

Other observations

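Of 33 metabolite, lipid and neuropeptide G protein receptors tested, 10 rose and 17 fell in shielded mice. Hcar2, a receptor of niacin and beta-hydroxybutyrate, was at 852, 796 and 586 CPM with LPS and 112, 113 and 92.8 CPM without (2.81 ± 0.17 SE, adjusted p = 6e-08, edgeR). Vipr1, a receptor of vasoactive intestinal peptide, fell from 26.1, 23.4 and 21.7 CPM to 3.47, 2.93 and 4.58 CPM (-2.69 ± 0.19 SE, adjusted p = 1.6e-07). The groups did not overlap for either gene. Of 35 ion channel genes, 12 rose and 11 fell, shares near the 32.4% higher and 35.1% lower over all genes (9 and 18 under library totals, 7 and 10 with the marker covariate). Clic4 rose from 84.2 to 102 CPM to 321 to 435 CPM (2.07), and the potassium channel genes Kcnk12 (-3.35) and Kcnd1 (-2.08) fell. Among 39 phagocytic and scavenger genes, 13 rose and 19 fell. Sirpa, the receptor of the CD47 signal that restrains phagocytosis, fell from 1912, 2291 and 1966 CPM to 708, 705 and 675 CPM (-1.56 ± 0.11 SE, adjusted p = 1.8e-07), and Gas6, a bridging ligand of dying cells, from 253 to 278 CPM to 99.7 to 115 CPM (-1.33). Mertk, a receptor of Gas6, was not called (-0.13, adjusted p = 0.379), and with the marker covariate it was called lower (-0.46, adjusted p = 0.0252). Of 58 histone and DNA modifying enzymes 27 rose and 17 fell, with 16 and 25 under library totals and 13 and 19 with the marker covariate. The deacetylase gene Hdac5 fell from 175, 192 and 192 CPM to 45.0, 37.9 and 45.3 CPM (-2.12 ± 0.10 SE, adjusted p = 1.9e-08) and Hdac4 rose (1.72).

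Some genes were nearly without counts in one group. Of all genes in the table, 41 had at most 3 counts in each shielded library without LPS and more in each with LPS, and 724 had the reverse. Plet1os, an antisense gene of Plet1, had 266, 246 and 278 counts with LPS and 1, 2 and 1 without; its reads cannot be told from those of Plet1 without the strand. Saa1, a serum amyloid, had 71, 90 and 47 counts with LPS and 3, 2 and 0 without. Ubd, which encodes the ubiquitin-like FAT10, had 17, 24 and 41 against 2, 1 and 0. In reverse, leaving out predicted genes, Gh (growth hormone) had the highest mean level, with 0, 1 and 2 counts with LPS. Its counts without LPS were uneven, at 4, 324 and 754, and it is outside the 190 genes counted above. The part of RNA from other tissue in these 724 genes was not tested. Chp2 had 0, 1 and 1 counts with LPS and 260, 161 and 231 without. Gna14, a G protein alpha subunit, had 1, 0 and 3 against 86, 59 and 55. The immunoglobulin joining segment Ighj4 had 3, 0 and 0 against 111, 83 and 88, beside the fall of Ighm reported above. The B cell markers were also lower with LPS, at 0.512, 1.27 and 0.961 summed CPM against 1.57, 2.81 and 1.78 CPM, and 1 of the 2 tested was called; their part in these falls was not tested.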
